A study of Mus musculus with 16 samples.

Results

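The 10 genes described here code for 7 matrix metalloproteinases (Mmp8, Mmp9, Mmp12, Mmp13, Mmp14, Mmp19 and Mmp27) and 3 tissue inhibitors of metalloproteinases (Timp1, Timp2 and Timp3). They were taken by symbol from the 22287 genes of the count table, and 10 of 10 were among the 12514 genes tested. Their transcripts were measured by RNA-seq in bone marrow derived macrophages (BMDMs) of C57BL/6J mice aged 8 weeks. The marrow was kept in GM-CSF at 20 ng/ml (GM cells) or in M-CSF at 50 ng/ml (M cells) over 7 days, on tissue culture treated (TC) or untreated (noTC) plastic dishes. Lipopolysaccharide (LPS), a bacterial cell wall component, was then given at 100 ng/ml over 3 h, or vehicle alone (steady state). Growth factor, dish and treatment gave 8 groups of 2 libraries, named by growth factor and dish (such as GM-TC or M-noTC), with -LPS added for the treated cells. GM and M cells were seeded at different densities, so that growth factor and density cannot be told apart. The sources used here do not say whether the 2 replicates of a group, or replicates with the same number, came from different mice, so p-values measure the spread between these libraries only. In such bulk samples, fewer cells of a type and less RNA per cell cannot be told apart.

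Matrix metalloproteinases are zinc-dependent proteases that are made as inactive precursors and cut extracellular matrix, chemokines and other secreted proteins. Mmp8 and Mmp13 are collagenases, Mmp9 is a gelatinase, Mmp12 is known as macrophage elastase, and Mmp14 is anchored in the plasma membrane. TIMPs bind the active site of these enzymes and block it, and Timp2 also takes part in the activation of pro-Mmp2 by Mmp14. Macrophages are a known source of Mmp12, and activated macrophages of several other members.

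Total counts per library lay between 17527802 and 31458363, at which 3 counts equal 0.0954 to 0.171 CPM (counts scaled to the library total) before TMM scaling, a floor that covers counting error only. CPM below are scaled by edgeR's TMM factors, and a gene was called when its Benjamini-Hochberg adjusted p in edgeR's quasi-likelihood fit over all 16 libraries was under 0.05. The 10 macrophage markers listed were each over 1 CPM in every group. The 4 TC libraries at steady state stood apart in heart and skeletal muscle transcripts, whose 17 genes summed to 30.1 to 75.4 CPM there and to at most 2.51 CPM elsewhere. The part of this in the steady state comparisons of dishes was not tested. For the members, each of these comparisons is given beside the same one upon LPS challenge, which holds none of these libraries. For other genes, some are given at steady state only. The same 4 libraries enter the LPS comparisons on TC, where 15 (GM) and 16 (M) of 16 tested muscle genes were called lower with LPS. Of all tested genes, 34.2% and 36.4% were. They also enter GM-TC against M-TC and the interactions with these groups. The part of these transcripts there was not tested either. In the noTC libraries at steady state, genes that were below 1 CPM in TC cells and reached 100 CPM elsewhere exceeded their TC level by a median of 0.675% (GM, 15 genes) and 0.6% (M, 19 genes) of their level in the 10 remaining libraries. Values after subtraction of this share are given for Mmp8, Mmp13 and Mmp14. The 2 replicates of GM-TC differed more than those of the other groups, with a chi-square per degree of freedom over genes of 12.9, beside 1.92 to 5.28.

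Of the 10 members, 8 had an entry in the RefSeq promoter table of GRCm38.p6, with 9 transcription starts in all. Mmp13, Mmp12, Mmp8 and Mmp27 lie in one cluster on chromosome 9, and their windows are shown because these neighbours had different patterns of expression. The windows of Mmp14 and Timp1 are shown because these genes rose upon LPS challenge in each of the 4 kinds of culture. Each run is the 100 bases before the start, from 5′ to 3′ on the strand of the gene. Capitals mark the AP-1 motif TGANTCA, which was searched on both strands. The study's own genome build was not given in the sources used here.
Mmp13, chr9:7272414-7272513, + strand: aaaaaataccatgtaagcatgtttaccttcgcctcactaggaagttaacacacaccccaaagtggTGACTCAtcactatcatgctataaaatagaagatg
Mmp12 (upstream start), chr9:7344297-7344396, + strand: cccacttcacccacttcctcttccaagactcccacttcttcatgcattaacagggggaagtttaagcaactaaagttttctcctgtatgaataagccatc
Mmp12 (downstream start), chr9:7347274-7347373, + strand: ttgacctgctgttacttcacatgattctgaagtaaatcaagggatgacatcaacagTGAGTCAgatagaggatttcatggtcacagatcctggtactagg
Mmp8, chr9:7558329-7558428, + strand: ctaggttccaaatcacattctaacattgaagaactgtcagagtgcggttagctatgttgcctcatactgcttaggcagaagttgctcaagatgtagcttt
Mmp27, chr9:7571296-7571395, + strand: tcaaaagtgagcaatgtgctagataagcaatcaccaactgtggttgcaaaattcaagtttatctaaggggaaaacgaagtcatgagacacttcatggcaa
Mmp14, chr14:54431498-54431597, + strand: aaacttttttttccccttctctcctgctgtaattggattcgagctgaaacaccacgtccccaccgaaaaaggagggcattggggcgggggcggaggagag
Timp1, chrX:20870066-20870165, + strand: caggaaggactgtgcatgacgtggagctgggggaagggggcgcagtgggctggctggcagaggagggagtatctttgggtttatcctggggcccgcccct
Over the 300 bases from 250 before to 50 after the start, the AP-1 motif was in 2 of the 8 members, Mmp13 and Mmp12, and in 7.81% of all 32851 entries. It began 35 bases before the Mmp13 start and 44 bases before the downstream start of Mmp12. The motif TATAAA was in Mmp13, Mmp12 and Mmp8 and in 13.6% of entries. Only that of Mmp13, which began 16 bases before the start, lay wholly upstream. In Mmp12 it began at base 5 past the start. In Mmp8 it was on the opposite strand, read as TTTATA, and began 3 bases before the start and ran past it. GAGGAAGT, a PU.1 motif, was in Mmp12 and Mmp8 and in 3.2%. For Mmp12, AP-1 and TATAAA matched at the downstream start only, and GAGGAAGT at the upstream start only. Members are counted by gene and the shares by entry, so that Mmp12 could match at either of its starts. TTCNNNGAA, the kind of site that STAT proteins bind, was in 8.3% of entries and in 0 of the 8 members. These other motifs were also searched on both strands, and none was required to be apart from another. A match is a description of these letters only.

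**Figure D1:**
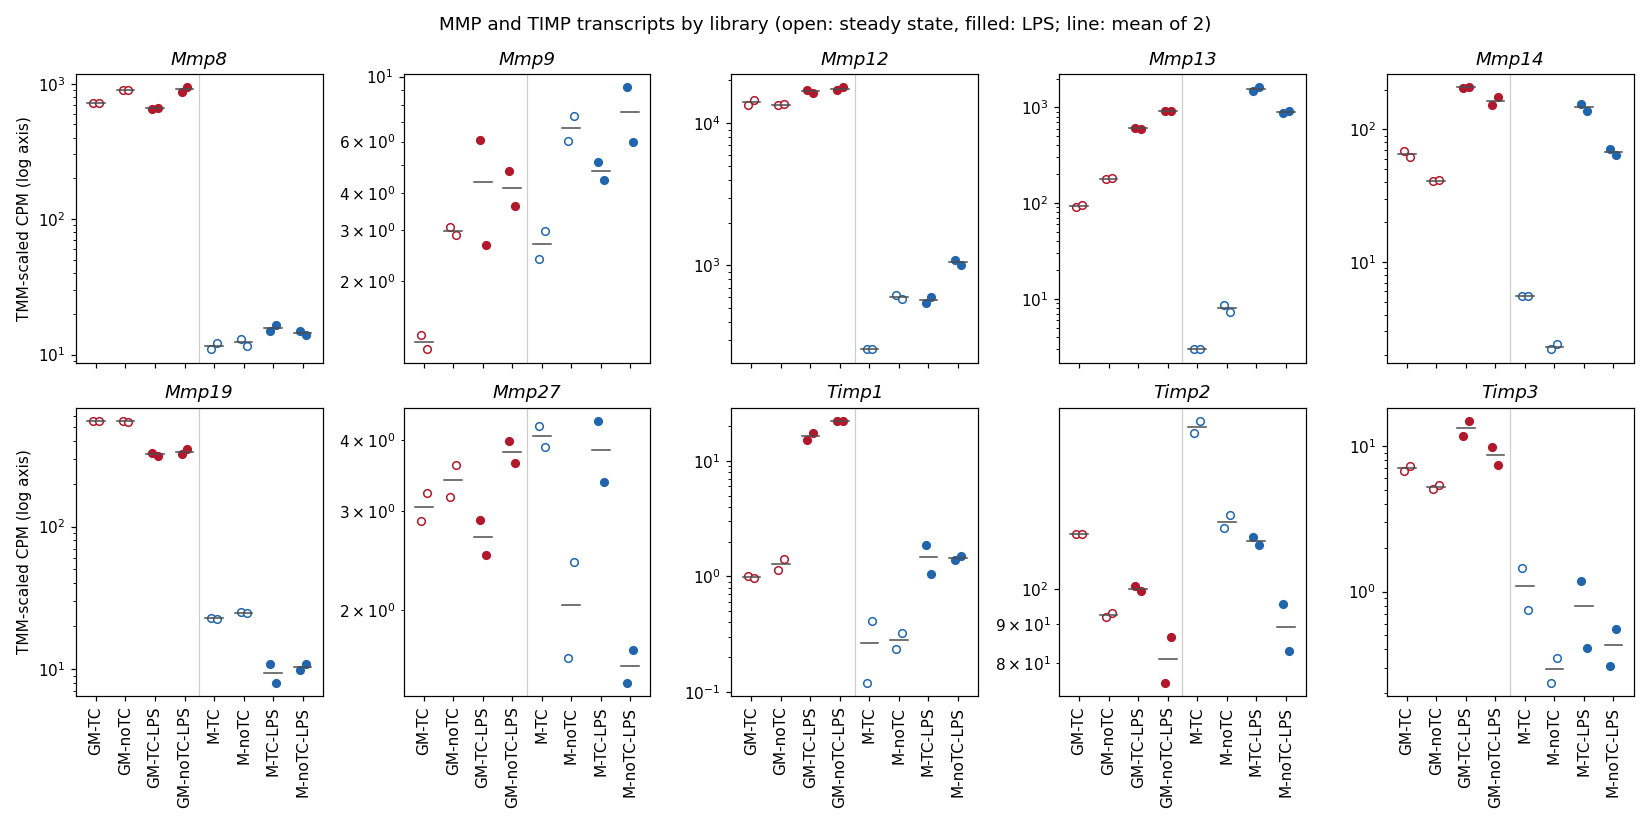
TMM-scaled CPM (log axis, with its own range in each panel) of the 10 genes in each of the 16 libraries, GM in red and M in blue, open points for steady state and filled points for LPS, with a line at the mean of the 2 libraries of a group. Mmp12, Mmp8 and Mmp19 were higher in each GM library than in each M library, while Mmp13 in M rose from 2.97 CPM in M-TC to 1540 CPM in M-TC-LPS.

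Levels of different members were compared per kilobase of exon, with lengths from GENCODE. Mmp12 had the highest level among the members in each of the 4 GM groups, with 1870 to 2420 CPM per kb. Mmp8 followed at steady state with 297 and 373 CPM per kb, and upon LPS challenge it had 271 and 374 CPM per kb on TC and noTC, beside 226 and 343 for Mmp13. In M cells at steady state the order was led by Mmp12 with 35.5 and 83.5 CPM per kb and Timp2 with 41.8 and 31.3 CPM per kb, with Timp2 the first on TC and Mmp12 the first on noTC. Upon LPS challenge the lead in M cells passed to Mmp13, with 576 CPM per kb in M-TC-LPS and 334 in M-noTC-LPS. Timp2 was the most abundant inhibitor per kb in all 8 groups except GM-noTC-LPS, where Timp1 was at 25 and Timp2 at 20.8 CPM per kb.

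The first comparison asked how GM and M cells differed. Most members were higher in GM cells: 7 of 10 were called higher and 2 lower on TC at steady state, where 32.6% and 28.9% of all tested genes were called in these directions. On noTC at steady state 8 were higher and 2 lower, with 31.4% and 30.7% of all genes. Upon LPS challenge 6 were higher and 3 lower on TC, with 33.9% and 32.9% of all genes, and 7 were higher and 1 lower on noTC, with 33.5% and 32.6%. The median log2 difference of the members was 3.14, 4.12, 1.98 and 2.61 in this order, beside 0.0175, 0, 0.0284 and 0.019 over all tested genes. Mmp8, Mmp12, Mmp14, Mmp19, Timp1 and Timp3 were called higher in GM in all 4 comparisons.

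**Figure D2:**
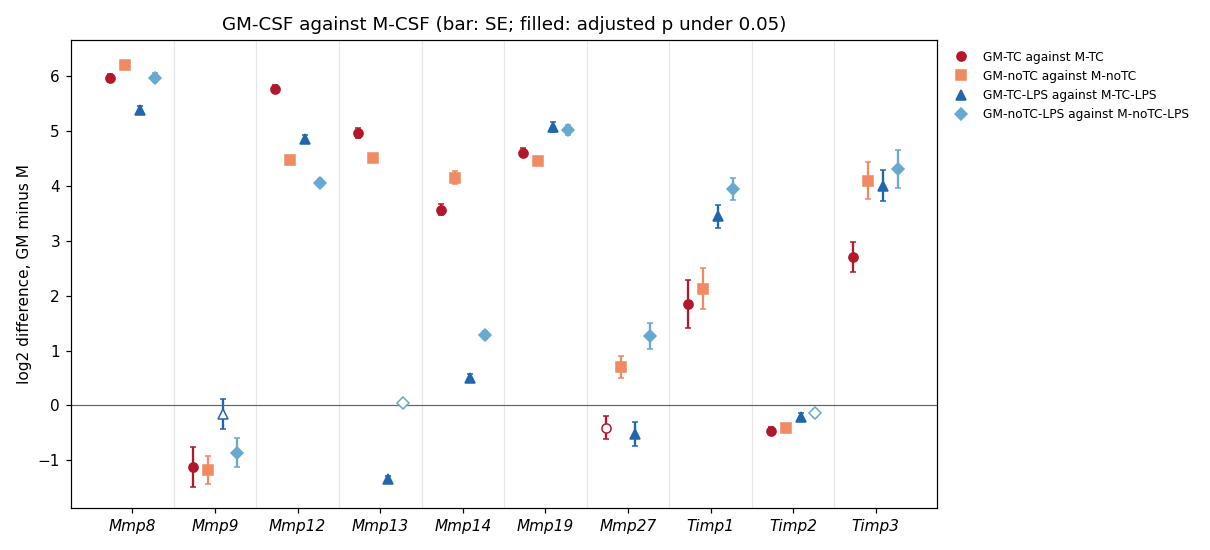
Log2 difference of GM minus M for each member, with 1 SE, in the 4 comparisons of growth factors, filled where the adjusted p was under 0.05. Mmp13 stood at 4.97 on TC at steady state and at -1.35 on TC upon LPS challenge, and Mmp8 between 5.39 and 6.21.

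The second question was how LPS changed the members. On TC, 6 of 10 members rose and 3 fell in GM cells, where 32.8% and 34.2% of all genes did, and 6 rose and 2 fell in M cells, where 37.6% and 36.4% did. On noTC, 5 rose and 2 fell in GM cells, with 33.6% and 34% of all genes, and 5 rose and 2 fell in M cells, with 36.4% and 35.9%. Mmp12, Mmp13, Mmp14 and Timp1 rose and Mmp19 and Timp2 fell in all 4 comparisons, although without TMM scaling Mmp12 turned in GM and was not called in M-noTC. TMM factors ranged from 1.109 to 1.392 without LPS and from 0.7777 to 0.8416 with it. With library size alone as the scale, the median log2 difference of all genes moved to -0.53 and -0.542 in GM and to -0.834 and -0.729 in M on TC and noTC, and changes here are relative to a median near 0. The median of the members was 0.588 and 0.432 in GM and 0.639 and 0.37 in M, beside -0.0508, -0.0339, -0.00835 and -0.00613 over all tested genes.

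**Figure D3:**
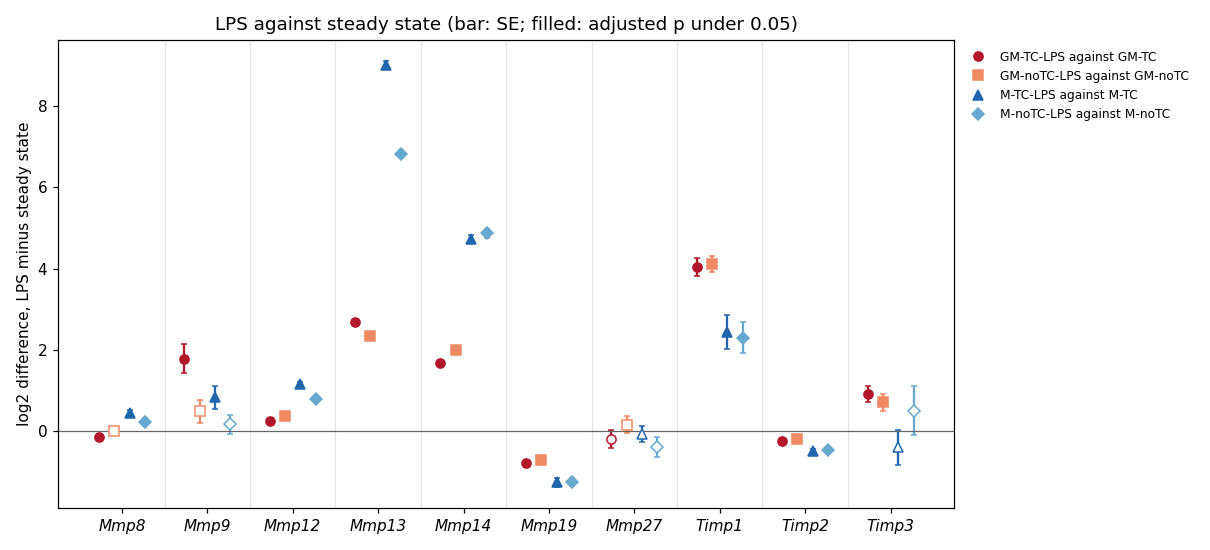
Log2 difference of LPS minus steady state for each member, with 1 SE, in the 4 kinds of culture, filled where the adjusted p was under 0.05. The highest points are those of Mmp13 in M cells, at 9.02 on TC and 6.83 on noTC, and Mmp19 and Timp2 lie below 0 in each culture.

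The third question was whether the dish surface mattered. In GM cells at steady state 3 of 10 members were higher and 2 lower on noTC compared with TC, where 4.69% and 2.85% of all genes were. Upon LPS challenge 2 were higher and 2 lower, with 2.08% and 0.727% of all genes. In M cells at steady state 3 were higher and 4 lower, with 16.1% and 11.1% of all genes, and upon LPS challenge 1 was higher and 4 were lower, with 10.4% and 12.9%. These shares of all genes depended on single libraries, and in GM at steady state they were 9.41% and 6.23% without GM-TC replicate 1 and 2.3% and 0.958% without GM-noTC replicate 1. Mmp14 and Timp2 were lower on noTC in all 4 comparisons. The median of the members was 0.0694 and 0.0637 in GM at steady state and with LPS, and 0.0907 and -0.248 in M, beside 0, 0.00348, 0.0114 and -0.000216 over all tested genes.

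**Figure D4:**
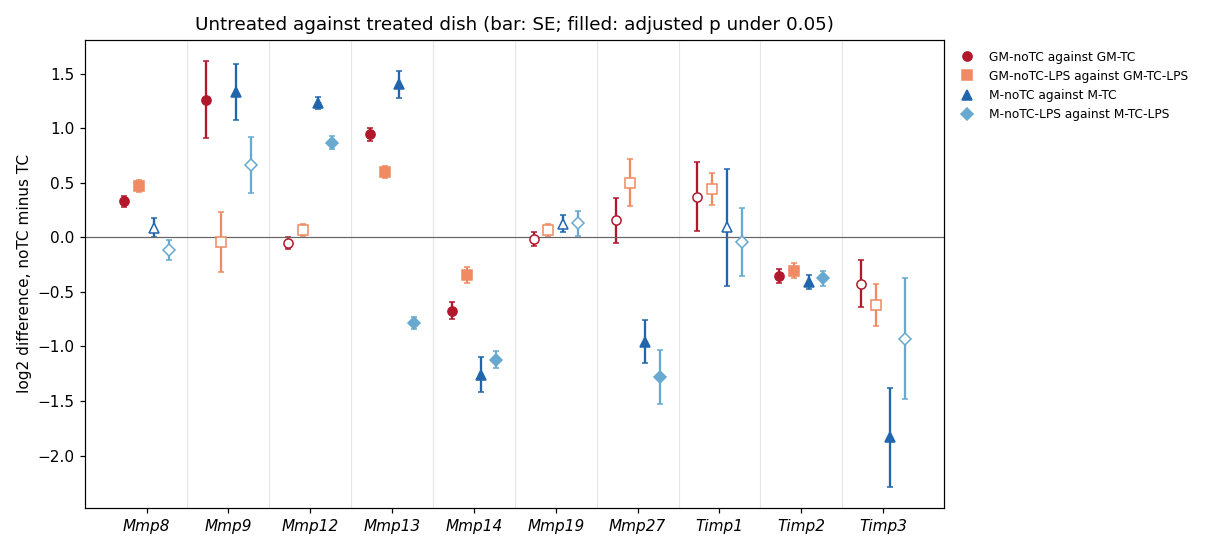
Log2 difference of noTC minus TC for each member, with 1 SE, in GM and M cells at steady state and with LPS, filled where the adjusted p was under 0.05. Mmp14 and Timp2 lie below 0 in each comparison, and Mmp13 is above 0 in 3 of them and at -0.787 in M cells with LPS.

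Differences between these responses were tested as interactions. The LPS response differed between GM and M cells for 8 of 10 members on TC and for 6 on noTC, where 41.1% and 36.2% of all genes were called in either direction. Between dishes it differed for 1 member in GM, where 0.783% of genes were called, and for 2 in M, where 10.6% were. The effect of the dish differed between GM and M cells for 4 members at steady state, with 11.2% of all genes, and for 5 upon LPS challenge, with 10.6%. The comparisons share their libraries, so that the counts are not independent of each other.

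Among the collagenases, Mmp13 changed most upon LPS challenge. GM cells on TC had 90.9 and 95.8 CPM before LPS and 611 and 598 CPM with it, and on noTC 178 and 182 CPM before and 922 and 909 CPM with it. M cells on TC had 2.95 and 2.99 CPM before LPS and 1470 and 1620 CPM with it, and on noTC 8.59 and 7.32 CPM before and 866 and 922 CPM with it. The M-TC-LPS libraries were the highest of all 16 and the M-TC libraries the lowest, and the GM-noTC-LPS and M-noTC-LPS libraries overlapped. LPS raised Mmp13 by 6.47-fold in GM on TC (log2 2.69 ± 0.0611, SE, adjusted p = 3.3e-20) and by 5.09-fold on noTC (2.35 ± 0.0589, 1.9e-19). In M cells the rise was 518-fold on TC (log2 9.02 ± 0.091, adjusted p = 5.9e-26) and 113-fold on noTC (6.83 ± 0.0779, 2.4e-25). After subtraction of the share given above, the rise on noTC was 7.5 on the log2 scale. The LPS response was smaller in GM than in M, with a difference of -6.32 on TC (adjusted p = 2.2e-20) and -4.48 on noTC (9.4e-19), or -5.12 after subtraction.

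The order of GM and M cells in Mmp13 turned with LPS. At steady state GM cells had 31.4-fold more on TC (log2 4.97 ± 0.0932, adjusted p = 2.2e-21) and 22.8-fold more on noTC (4.51 ± 0.0749, 3.4e-22), which became 5.16 on the log2 scale after subtraction. Upon LPS challenge GM cells had 2.55-fold less on TC (log2 -1.35 ± 0.0564, adjusted p = 3.1e-15). On noTC the difference with LPS was 0.0348, with an interval of -0.0805 to 0.15 (adjusted p = 0.6). Dish surface moved Mmp13 in opposite directions as well. It was higher on noTC in GM at steady state (log2 0.945 ± 0.0598, adjusted p = 5.3e-10), in GM with LPS (0.599 ± 0.0558, 9e-07) and in M at steady state (1.4 ± 0.12, 1.3e-08), and lower on noTC in M with LPS (-0.787 ± 0.0556, 1.4e-09). The dish effect with LPS differed between GM and M by 1.39 (adjusted p = 3.3e-10), and the LPS response of M cells differed between dishes by -2.19 (4.5e-10), or -1.52 (1.3e-06) after subtraction. For M-noTC, the excess over M-TC was 1.02% of the level in the other libraries, and after subtraction the dish effect in M at steady state was 0.736 (adjusted p = 0.00044). At steady state the dish effect differed between GM and M by -0.459 (adjusted p = 0.033), a value that became 0.188 (0.54) with this subtraction and was not called when any 1 of 6 libraries was left out.

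Mmp8, the collagenase first described in neutrophils, was far higher in GM cells. With GM-CSF, the TC libraries held 720 and 720 CPM (steady state) and 646 and 667 CPM (LPS), and the noTC libraries 906 and 901 CPM (steady state) and 875 and 941 CPM (LPS). In M cells it lay between 10.9 and 16.4 CPM over all 8 libraries, far below each GM library. GM cells had 42-fold (GM-TC-LPS) to 73.9-fold (GM-noTC) more than M cells, with log2 differences of 5.39 to 6.21. On noTC it was higher than on TC in GM at steady state (log2 0.328 ± 0.0541, adjusted p = 0.00034) and with LPS (0.468 ± 0.0543, 2e-05), but the differences in M were 0.0892 (interval -0.0863 to 0.265) and -0.119 (-0.306 to 0.0682). This dish effect differed between GM and M with LPS by 0.587 (adjusted p = 0.00065). At steady state it differed by 0.239 (adjusted p = 0.14), which became 0.499 and was called after subtraction (0.0032). LPS moved Mmp8 less than Mmp13. Its log2 difference in GM was -0.133 on TC (adjusted p = 0.036) and 0.00701 on noTC (0.92), and the M cells showed 0.443 on TC (0.00013) and 0.235 on noTC (0.018). All of these except that of GM-TC took the opposite sign with library size alone as the scale. After subtraction the M-noTC value was 0.493. The LPS response differed between GM and M by -0.576 on TC (adjusted p = 0.00012), which was not called with library size alone (-0.231), and by -0.228 on noTC (0.085), which became -0.489 and was called after subtraction (0.00086). The GM-TC call was lost in 7 alternatives, and the M-noTC call without M-noTC replicate 2 or M-noTC-LPS replicate 1 (0.145 and 0.19).

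The 15 neutrophil markers summed to 485 to 1150 CPM in GM libraries and to at most 14.8 CPM in M libraries. They include the metalloproteinase Mmp25, described below, at 2.49 to 54.6 CPM in the GM groups and 0.249 to 9.18 CPM in the M groups. Chil3, which macrophages also express, made up most of this sum, with 481 to 1030 CPM in the GM groups. Of 9 tested, 8 were called higher in GM than in M on TC and 9 on noTC at steady state, and 7 and 8 with LPS. Of all tested genes, 32.6% and 31.4% were at steady state, and 33.9% and 33.5% with LPS. Ngp was at 6.38 to 14.7 CPM, S100a8 at 2.54 to 8.55 CPM, S100a9 at 3.15 to 10.6 CPM and Ltf at 2.21 to 4.76 CPM in the GM groups, and each was at most 0.589 CPM in the M groups. Ly6g was at most 0.129 CPM in the GM groups and at 0 in each M group, and the neutrophil granule genes Mpo, Elane and Ctsg were at most 0.348 CPM. In GM-TC, Ctsg, Retnlg and Stfa1 were at 0. Between dishes in GM at steady state, Chil3 was at 820 CPM on TC and 481 CPM on noTC, 1 of the 9 tested markers was called lower on noTC and 0 higher, and their median log2 difference was 0.498. In that comparison 2.85% of all tested genes were called lower and 4.69% higher. Between dishes in GM with LPS, 2 of the 9 were called higher on noTC and 1 lower, with a median of 0.255. Chil3 was then at 1030 CPM on TC and 665 CPM on noTC. Of all tested genes, 2.08% were called higher there and 0.727% lower. The part of these markers in the level of Mmp8 was not tested.

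Mmp12, the macrophage elastase, reached the highest CPM of the members. GM-TC libraries held 13500 and 14500 CPM, GM-noTC 13400 and 13600, GM-TC-LPS 17200 and 16300, and GM-noTC-LPS 17100 and 17900. M-TC libraries held 258 and 257 CPM, M-noTC 625 and 582, M-TC-LPS 547 and 604, and M-noTC-LPS 1100 and 1000. Each GM library was above each M library, by 54.5-fold on TC and 22.4-fold on noTC at steady state, and by 29.1-fold and 16.7-fold upon LPS challenge. The dish moved Mmp12 in M cells, with 2.35-fold more on noTC at steady state (log2 1.23 ± 0.0573, adjusted p = 1.4e-12) and 1.82-fold more with LPS (0.867 ± 0.0565, 4.5e-10). In GM cells the difference between dishes was -0.0522 (interval -0.167 to 0.0626) and 0.0632 (-0.0516 to 0.178), and the dish effect differed between GM and M by -1.28 and -0.804 (adjusted p = 4.2e-10 and 5.1e-07).

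Upon LPS challenge Mmp12 rose by 2.24-fold in M-TC (adjusted p = 3e-14) and 1.74-fold in M-noTC (1.9e-11), and by 1.2-fold and 1.3-fold in GM (0.00028 and 3.4e-06). The response was larger in M than in GM, with a difference of -0.902 on TC and -0.422 on noTC (adjusted p = 5.2e-09 and 0.00018). With library size alone as the scale, Mmp12 fell in GM, by 0.22 and 0.133 on the log2 scale, and in M-noTC it was at 0.0722 (adjusted p = 0.22).

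Mmp14, the membrane-bound member that activates pro-Mmp2, rose upon LPS challenge and was lower on noTC. The GM values on TC were 68.9 and 62.1 CPM without and 207 and 208 CPM with LPS, beside 40.8 and 41.3 CPM without and 152 and 175 CPM with LPS on noTC. With M-CSF, the TC libraries held 5.5 and 5.54 CPM (steady state) and 156 and 137 CPM (LPS), and the noTC libraries 2.19 and 2.39 CPM (steady state) and 71.2 and 63.7 CPM (LPS). From the highest, the order was GM-TC-LPS, GM-noTC-LPS, M-TC-LPS, M-noTC-LPS, GM-TC and GM-noTC, and then M-TC before M-noTC. The libraries of GM-noTC-LPS and M-TC-LPS overlapped, as did those of M-noTC-LPS and GM-TC. LPS raised it by 3.17-fold and 3.98-fold in GM on TC and noTC, and by 26.5-fold and 29.2-fold in M (adjusted p from 6.2e-21 to 8.2e-15). The response differed between GM and M by -3.06 on TC and -2.87 on noTC (adjusted p = 3.4e-14 and 9.9e-13). GM cells exceeded M cells by 11.8-fold and 17.8-fold at steady state, but by 1.42-fold and 2.42-fold upon LPS challenge.

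On noTC Mmp14 was 1.59-fold lower in GM at steady state (log2 -0.672 ± 0.0796, adjusted p = 5.7e-06) and 1.27-fold lower with LPS (-0.344 ± 0.0711, 0.0067). In M cells it was 2.39-fold lower at steady state (-1.26 ± 0.159, 2.9e-06) and 2.17-fold lower with LPS (-1.12 ± 0.076, 7.7e-10), and the first of these was -1.56 after subtraction. The value in GM with LPS was not called without GM-TC-LPS replicate 1 (-0.35), GM-TC-LPS replicate 2 (-0.337) or GM-noTC-LPS replicate 1 (-0.247). The dish effect differed between GM and M by 0.585 at steady state (adjusted p = 0.037), which was 0.874 after subtraction and was not called without 7 of the 8 libraries in turn, and by 0.775 with LPS (2.6e-05). Of 13 tested stromal cell markers, 2 were called lower on noTC in GM at steady state and 8 with LPS, and 3 and 1 in M, with 0 higher in each. Of all tested genes, 2.85% and 0.727% were called lower in GM and 11.1% and 12.9% in M. Called higher were 4.69% and 2.08% in GM and 16.1% and 10.4% in M. The 15 markers listed had sums of 258 and 252 CPM on noTC and 330 and 322 CPM on TC in GM at steady state, and of 477 and 497 CPM on noTC and 624 and 611 CPM on TC with LPS. In M cells their sum was at most 63 CPM. Fstl1 held 235 to 537 CPM of the sum in the GM groups, Pdgfra was at 3.52 CPM on TC and 4.35 CPM on noTC in GM with LPS, and Col1a1, Col1a2, Col3a1, Dcn and Lum were each at most 2.74 CPM in every group. The part of these markers in the result was not tested.

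Mmp19, a secreted member with a broad range of substrates, was high in GM cells and fell upon LPS challenge. GM-TC libraries had 552 and 553 CPM, GM-noTC 553 and 540, GM-TC-LPS 330 and 312, and GM-noTC-LPS 321 and 350. M-TC libraries had 22.9 and 22.5 CPM, M-noTC 25 and 24.6, M-TC-LPS 10.8 and 8.02, and M-noTC-LPS 9.8 and 10.9. Steady state and LPS libraries did not overlap within a growth factor, while those of the 2 dishes did except in M at steady state. The fall was 1.72-fold and 1.63-fold in GM on TC and noTC (adjusted p = 2e-10 and 1.2e-09) and 2.39-fold on both dishes in M (1.4e-10 and 5.3e-11). It was steeper in M by 0.475 on TC and 0.551 on noTC on the log2 scale (adjusted p = 0.0026 and 5e-04), and the first of these was not called without M-TC-LPS replicate 2 (0.289). GM exceeded M by 22.1-fold to 33.8-fold. No dish effect was called, with log2 differences between -0.0151 and 0.129. In the annotation 789 exon bases of Mmp19 overlap Tmem198b on the opposite strand, which had 2745 counts in all, and the library kit does not mark strand.

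The gelatinase Mmp9 was scarce. GM cells on TC had 1.31 and 1.17 CPM before LPS and 6.05 and 2.65 CPM with it, and on noTC 3.06 and 2.88 CPM before and 4.74 and 3.6 CPM with it. The M values on TC were 2.39 and 2.96 CPM without and 5.12 and 4.42 CPM with LPS, beside 6.03 and 7.36 CPM without and 9.19 and 5.99 CPM with LPS on noTC. The 2 GM-TC-LPS libraries were far apart and spanned both GM-noTC libraries. On noTC at steady state it was higher by 2.4-fold in GM (log2 1.26 ± 0.355, adjusted p = 0.031) and by 2.51-fold in M (1.33 ± 0.257, 0.00044). The GM value was not called without GM-TC replicate 2 (1.17), GM-noTC replicate 1 (1.22) or GM-noTC replicate 2 (1.3). With LPS the dish differences were -0.0433 in GM (interval -0.624 to 0.538) and 0.662 in M (adjusted p = 0.07). The M value was called with library size alone (0.75), without the expression filter (0.667) and with the libraries of the comparison only (0.681). LPS raised Mmp9 on TC by 3.47-fold in GM and 1.78-fold in M (adjusted p = 9.4e-05 and 0.013), the latter not without M-TC replicate 1 (0.693) or M-TC-LPS replicate 1 (0.718), nor with library size alone (0.01). The rise in GM was 1.79 on the log2 scale and became 1.1 without GM-TC-LPS replicate 1. On noTC the differences were 0.488 in GM (interval -0.104 to 1.08) and 0.168 in M (adjusted p = 0.13 and 0.53). That of GM was called without the expression filter (0.51) and with the libraries of the comparison only (0.489). M cells had more than GM cells at steady state, by 2.17-fold on TC and 2.27-fold on noTC (adjusted p = 0.01 and 0.00033). The TC value was not called without GM-TC replicate 2 (-1.03) or M-TC replicate 2 (-0.966). With LPS on noTC they had 1.82-fold more (0.0058), which was not called without GM-noTC-LPS replicate 2 (-0.679) or M-noTC-LPS replicate 1 (-0.524). With LPS on TC the difference of GM minus M was -0.157 (interval -0.738 to 0.423), and it was called without GM-TC-LPS replicate 1 (-0.854).

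Mmp27, a member of the chromosome 9 cluster, was also scarce, with 1.49 to 4.33 CPM over all 16 libraries. The M libraries on TC stood at 4.23 and 3.89 CPM (steady state) and 4.33 and 3.37 CPM (LPS), and those on noTC at 1.65 and 2.44 CPM (steady state) and 1.49 and 1.7 CPM (LPS), with the dishes apart in both states. In GM cells the libraries lay between 2.51 and 3.98 CPM. It was 1.94-fold lower on noTC in M at steady state (log2 -0.956 ± 0.2, adjusted p = 0.00093) and 2.43-fold lower with LPS (-1.28 ± 0.243, 0.00051). In GM the dish differences were 0.154 (interval -0.279 to 0.586) and 0.5 (0.0483 to 0.952, adjusted p = 0.3). The dish effect differed between GM and M by 1.11 at steady state and 1.78 with LPS (adjusted p = 0.014 and 0.00083), the first not called without GM-noTC replicate 2 (1.02), M-TC replicate 1 (1.05) or M-noTC replicate 1 (0.89). GM exceeded M on noTC, by 0.705 at steady state (adjusted p = 0.0048) and 1.26 with LPS (9e-05), the first not without GM-noTC replicate 2 (0.595) or M-noTC replicate 1 (0.469). On TC the difference was -0.405 at steady state (0.09) and -0.523 with LPS (0.042), a call that was lost in 7 alternatives. No response to LPS was called, with log2 differences from -0.389 to 0.162. With library size alone it was called lower with LPS in GM-TC (-0.663), M-TC (-0.891) and M-noTC (-1.11), and in M-noTC also without M-noTC replicate 1 (-0.601).

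Of the inhibitors, Timp1, which many cells make upon activation, rose upon LPS challenge. With GM-CSF, the TC libraries held 1.01 and 0.966 CPM (steady state) and 15 and 17.5 CPM (LPS), and the noTC libraries 1.14 and 1.4 CPM (steady state) and 22.2 and 22.2 CPM (LPS). M cells on TC had 0.12 and 0.412 CPM before LPS and 1.87 and 1.05 CPM with it, and on noTC 0.236 and 0.325 CPM before and 1.39 and 1.5 CPM with it. The M libraries at steady state held 3 to 14 counts, so that folds against them are imprecise. The rise was 16.5-fold and 17.3-fold in GM on TC and noTC (log2 4.04 ± 0.218 and 4.11 ± 0.196, adjusted p = 2.1e-13 and 2.2e-14). In M it was 5.42-fold and 4.93-fold (2.44 ± 0.418 and 2.3 ± 0.378, 1.7e-05 and 1e-05), and the first became 1.84 without M-TC replicate 1 and 3.58 without M-TC replicate 2. The response was larger in GM by 1.6 on TC and 1.81 on noTC (adjusted p = 0.03 and 0.0059), but not called on TC without GM-TC-LPS replicate 2 (1.49), M-TC replicate 2 (0.473) or M-TC-LPS replicate 2 (1.27), nor on noTC without M-noTC replicate 2 (1.54). GM exceeded M by 3.6-fold and 4.37-fold at steady state and by 10.9-fold and 15.3-fold with LPS. The steady state difference on TC, 1.85 on the log2 scale, became 1.23 without M-TC replicate 1 and 2.98 without M-TC replicate 2. No dish effect was called, with log2 differences from -0.0442 to 0.442. The largest, in GM with LPS, was called without the expression filter (0.45) and with the libraries of the comparison only (0.433). Timp1 lies inside Syn1 on the opposite strand, and no exon bases of the 2 genes overlap.

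Timp2 was the inhibitor with the most CPM and the one that fell upon LPS challenge. The GM values on TC were 118 and 118 CPM without and 101 and 99.3 CPM with LPS, beside 91.9 and 93 CPM without and 75.4 and 86.5 CPM with LPS on noTC. With M-CSF, the TC libraries held 160 and 166 CPM (steady state) and 117 and 114 CPM (LPS), and the noTC libraries 120 and 125 CPM (steady state) and 95.5 and 82.9 CPM (LPS). M-TC was the highest group and GM-noTC-LPS the lowest. On noTC it was lower by 1.28-fold and 1.24-fold in GM at steady state and with LPS (adjusted p = 0.0013 and 0.013) and by 1.33-fold and 1.3-fold in M (3.7e-05 and 0.00029). The value in GM with LPS was not called without GM-TC-LPS replicate 1 (-0.294), GM-TC-LPS replicate 2 (-0.314) or GM-noTC-LPS replicate 1 (-0.207). LPS lowered it by 1.18-fold and 1.14-fold in GM on TC and noTC (adjusted p = 0.0032 and 0.016) and by 1.41-fold and 1.37-fold in M (5.7e-07 and 2e-06). The fall in GM-noTC was not called without GM-noTC replicate 1 (-0.178), GM-noTC replicate 2 (-0.162) or GM-noTC-LPS replicate 1 (-0.0938). It was smaller in GM than in M by 0.254 on TC and 0.267 on noTC (0.034 and 0.031), and each difference was lost when any 1 of 5 libraries was left out. Timp2 was lower in GM than in M at steady state, by 1.38-fold on TC and 1.33-fold on noTC (adjusted p = 1.9e-06 and 1.2e-05), and with LPS on TC by 1.16-fold (0.0088), which was not called without GM-TC-LPS replicate 2 (-0.201) or M-TC-LPS replicate 1 (-0.189). On noTC with LPS the difference was -0.139 (interval -0.282 to 0.00326), and it was called without GM-noTC-LPS replicate 2 (-0.244) or M-noTC-LPS replicate 2 (-0.241) and with library size alone (-0.214).

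Timp3, which binds to the extracellular matrix, was low and had higher levels in GM than in M cells. GM cells on TC had 6.76 and 7.29 CPM before LPS and 11.6 and 14.9 CPM with it, and on noTC 5.05 and 5.43 CPM before and 9.85 and 7.44 CPM with it. The M values on TC were 1.44 and 0.748 CPM without and 1.18 and 0.407 CPM with LPS, beside 0.236 and 0.348 CPM without and 0.308 and 0.549 CPM with LPS on noTC, with 6 to 36 counts a library. GM exceeded M by 6.48-fold to 19.9-fold, and the log2 difference on TC with LPS, 4.01, became 5.01 without M-TC-LPS replicate 1. LPS raised it by 1.89-fold and 1.64-fold in GM on TC and noTC (adjusted p = 0.00032 and 0.0044), the latter not without GM-noTC-LPS replicate 1 (0.504), and neither with library size alone (0.437 and 0.21). In M the differences were -0.394 (interval -1.28 to 0.494) and 0.504 (-0.759 to 1.77). The LPS response differed between GM and M on TC by 1.31 (adjusted p = 0.028), which was not called without GM-TC-LPS replicate 2 (1.12), M-TC replicate 1 (0.794) or M-TC-LPS replicate 2 (0.791) and became 2.32 without M-TC-LPS replicate 1. On noTC Timp3 was lower in M at steady state (log2 -1.83 ± 0.453, adjusted p = 0.004), which was not called without M-TC replicate 1 (-1.3), and with LPS the difference was -0.928 (0.25), or 0.0814 without M-TC-LPS replicate 1. In GM the dish differences were -0.424 (0.27) and -0.623 (0.095). The second was called without the expression filter (-0.615) and with the libraries of the comparison only (-0.633). In the annotation 1733 exon bases of Timp3 overlap Syn3 on the opposite strand, which had 16 counts in all.

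Of 17 other metalloproteinase and Timp genes in the table, 5 passed the expression filter. They were Mmp2, Mmp3, Mmp10, Mmp25 and Mmp28. Mmp25, a membrane-anchored member known from leukocytes, rose upon LPS challenge from 2.49 ± 0.333 to 40.4 ± 1.2 CPM in GM-TC (SD, n = 2) and from 0.249 ± 0.0706 to 8.68 ± 0.301 CPM in M-TC (SD, n = 2). On noTC it went from 2.53 to 54.6 CPM in GM and from 0.337 to 9.18 CPM in M, and it was called in all 4. Mmp2, the gelatinase that Mmp14 activates, rose from 27 ± 3.3 to 78.7 ± 5.5 CPM in GM-TC and from 14.6 to 58.4 CPM in GM-noTC, and was at most 2.96 CPM in any M library. On noTC it was lower than on TC in GM, with a log2 difference of -0.895 at steady state (adjusted p = 4.1e-05) and -0.432 with LPS (0.02). Mmp3 was at most 4.6 CPM, Mmp10 at most 1.37 CPM and Mmp28 at most 2.36 CPM in any library. With LPS, 5 of these 5 genes rose in GM cells on TC and 3 on noTC, where 32.8% and 33.6% of all tested genes did. In M cells 3 rose on TC and 5 on noTC, where 37.6% and 36.4% did. In M-noTC, Mmp10 went from 0 and 0.0232 to 0.205 and 0.2 CPM, near the floor of 3 counts. There Mmp3 went from 0 and 0.0464 to 0.308 and 0.2 CPM, also near this floor. Comparing GM with M, 3 were higher and 1 lower in both steady state comparisons, 4 were higher on TC with LPS, and 4 were higher and 1 lower on noTC with LPS. Of all tested genes, 31.4% to 33.9% were higher and 28.9% to 32.9% lower in these comparisons. Between dishes, 1 was lower in GM at steady state, and 1 was higher and 1 lower in GM with LPS. The shares of all tested genes there were 4.69% higher and 2.85% lower at steady state, and 2.08% and 0.727% with LPS. In M cells the difference of Mmp2 between dishes was -0.584 at steady state (adjusted p = 0.32).

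In a list of 14 other inhibitors and activators of these enzymes, 12 were tested. Between 7 and 9 rose and 1 or 2 fell upon LPS challenge. Of all tested genes, 32.8% to 37.6% rose and 34% to 36.4% fell. Serpinb2, an inhibitor of plasminogen activators, rose from 4.24 and 4.79 to 927 and 1050 CPM in GM-TC, and Plau, the urokinase that makes plasmin, fell there from 240 and 258 to 74.3 and 69.6 CPM. In M-TC, Plau fell from 16.3 and 16.2 to 8.27 and 7.15 CPM. In each of the 4 comparisons of GM with M, 9 were higher in GM, led by Serpinb2 or, on noTC at steady state, by Thbs1. From 0 to 2 were lower. Of all tested genes, 31.4% to 33.9% were higher and 28.9% to 32.9% lower in GM. Between dishes 3 were higher and at most 1 lower on noTC in GM, and in M 6 and 2 at steady state and 2 and 2 with LPS. Of all tested genes in GM, 4.69% were higher and 2.85% lower at steady state, and 2.08% and 0.727% with LPS. In M these shares were 16.1% and 11.1% at steady state and 10.4% and 12.9% with LPS. Thbs1, a secreted matrix protein, was 156 and 155 CPM in GM-noTC against 103 and 94.7 in GM-TC, and 8.02 and 7.8 in M-noTC against 15.9 and 14.2 in M-TC. With LPS, Thbs1 was 964 and 943 CPM in GM-noTC-LPS against 502 and 574 in GM-TC-LPS.

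Of 12 ADAM and ADAMTS genes, 9 were tested, and of 14 cathepsins, 12. Adamts4, an aggrecanase, was at 0 in both M-TC libraries and at 53.4 and 56.4 CPM in M-TC-LPS, and rose from 0.101 and 0.362 to 12 and 12.2 CPM in GM-TC. Upon LPS challenge 3 or 4 of the 9 rose and 1 to 4 fell, and comparing GM with M 3 to 5 were higher and 4 or 5 lower. Of all tested genes, 32.8% to 37.6% rose and 34% to 36.4% fell upon LPS challenge. Comparing GM with M, 31.4% to 33.9% of them were higher and 28.9% to 32.9% lower. Adam8, a leukocyte ADAM, was higher on noTC in GM, at 216 and 218 against 105 and 105 CPM at steady state, and in M, at 619 and 599 against 290 and 291 CPM. With LPS, Adam8 was at 163 and 170 against 89.1 and 80.5 CPM in GM. In M with LPS it was at 399 and 370 against 279 and 272 CPM. Of the 12 cathepsins, 4 to 7 rose with LPS and at most 1 fell, with Ctsc, which activates granule serine proteases, the largest, from 635 and 657 to 1770 and 1770 CPM in GM-TC. Comparing GM with M, 1 to 3 of the 12 were lower and 9 were higher in GM in each of the 4 comparisons, led by Ctsk, a collagen-degrading cathepsin of osteoclasts, at 71.3 and 76.7 CPM in GM-TC against 5.98 and 5.09 CPM in M-TC. The shares of all tested genes beside these cathepsin counts are those given above for the ADAM genes. The 8 osteoclast markers, which include Ctsk, summed to 1510 to 1830 CPM in GM libraries and 68.8 to 110 CPM in M libraries. Atp6v0d2, at 906 to 1360 CPM, and Acp5, at 294 to 542 CPM, made up most of the sum in the GM groups. Of 7 tested markers, 5 were called higher in GM on each dish at steady state and 7 with LPS, and 0 lower. The shares of all tested genes are again those given above. Among the osteoclast markers, Calcr was at 0 in GM-TC, M-TC and M-noTC, and Oscar was at most 0.0693 CPM in every group. Itgb3 was at 18.2 and 15.9 CPM in GM and at 16.4 and 15.5 CPM in M on TC and noTC at steady state. The 10 dendritic cell markers summed to 1030 to 3010 CPM in GM and 23.2 to 202 CPM in M, with Itgax and Ccl22 the most abundant in GM, and Flt3 was at most 0.41 CPM. Of 9 tested, 8 or 9 were called higher in GM in each comparison and 0 lower, with the same shares of all tested genes. The 8 mast cell markers summed to at most 2.83 CPM. The part of such cells in the higher level of members in GM was not tested.

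The genes whose group means were most like those of each member, by Pearson's r of log2 CPM over the 8 groups, were named as a description, and the groups share their growth factor, dish and treatment. They were Pdcd1lg2 (r = 0.999) and Ear2 (0.998) for Mmp8, Tigar (0.997) and Snx7 (0.997) for Mmp12, and Tnfrsf26 (0.999) and Tm7sf2 (0.997) for Mmp19. For the members that rose with LPS they were Atp10a (0.996) and Bag1 (0.993) for Mmp13, Kpna4 (0.996) and Dgka (0.995) for Mmp14, and Apol7c (0.997) and Mfsd14b (0.994) for Timp1. The others were Ints1 (0.972) and Tyms (0.953) for Mmp9, Agmo (0.922) and Btg2 (0.891) for Mmp27, Snapc5 (0.978) and Hfe (0.969) for Timp2, and Chchd10 (0.99) and Vwf (0.99) for Timp3. Among the members themselves, Mmp8, Mmp12 and Mmp19 had r of 0.93 to 0.98 with each other over the 8 groups, and Mmp13 and Mmp14 had r of 0.92.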

How the data were processed

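The values deposited by the authors are RSEM expected counts for 22287 genes in 16 libraries of oligo(dT)-selected RNA, not normalized, from reads aligned with HISAT2. Per the submitters' processing notes, fastp 0.18.0, Bowtie2 2.2.8 and StringTie 1.3.1 were also used. The genome build and annotation are not given in the sources used here. Groups came from the sample titles. The expected counts (6.56% to 8.19% not whole per library) were rounded. filterByExpr of edgeR 4.0.16 (R 4.3.3) by group kept 12514 of 16756 genes with a count. TMM scaling and a quasi-likelihood fit over the 8 groups, without a replicate block, gave 12 comparisons and 6 interactions, adjusted over all tested genes. The common dispersion of this fit was 0.00226. An exact permutation test of 2 against 2 libraries cannot go below p = 0.333. Same-numbered libraries deviated with r of -0.064 to 0.036, so that they were not treated as pairs, and no 2 replicates agreed within sampling noise. On simulated counts (11958 genes) for GM-noTC against GM-TC, edgeR called 100 of 100 2-fold and 100 of 100 4-fold changes, with 12 false calls. Every gene was simulated at the common dispersion, and changes were placed only in genes above a minimum level. The simulation therefore cannot show the recovery of changes at low counts or at the wider spread of the GM-TC replicates.

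All 10 members were described, and differences of responses that were not called are mostly given as counts. Named were also, from the list of other metalloproteinases each that passed the filter, from the other lists the called genes with the largest and smallest log2 difference, and for each member the 2 genes with the highest r at a mean of 5 CPM or more. For brevity, a part of these extremes is given as counts. The members and lists were chosen with earlier results of these data known. Alternatives were DESeq2 1.42.0, its size factors, library size only, no filter, fewer libraries, a fold above 2 with unadjusted p, a replicate block, subtraction of other libraries' reads, and leaving out each library.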

Additional observations from a re-analysis of the deposited data

Results flagged for a closer look

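For 26 values a difference between the responses of 2 kinds of culture passed edgeR's test of that difference, adjusted over all tested genes. Each is a difference of log2 differences, and comparisons share libraries.

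The LPS response on TC, as GM minus M, differed by -6.32 in Mmp13, -3.06 in Mmp14, -0.902 in Mmp12 and -0.576 in Mmp8, a smaller rise in GM or, for Mmp8, a fall in GM and a rise in M. It differed by 0.475 in Mmp19 and 0.254 in Timp2, which fell more in M, and by 1.6 in Timp1 and 1.31 in Timp3. On noTC it differed by -4.48 in Mmp13, -2.87 in Mmp14, -0.422 in Mmp12, 0.551 in Mmp19, 1.81 in Timp1 and 0.267 in Timp2.

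Between dishes, the LPS response as noTC minus TC differed by -0.346 in Mmp13 in GM, and in M by -2.19 in Mmp13, which was -1.52 after subtraction of other libraries' reads, and -0.364 in Mmp12. The dish effect at steady state, as GM minus M, differed by -1.28 in Mmp12, -0.459 in Mmp13, 0.585 in Mmp14 and 1.11 in Mmp27. With LPS it differed by 0.587 in Mmp8, -0.804 in Mmp12, 1.39 in Mmp13, 0.775 in Mmp14 and 1.78 in Mmp27. The difference of Mmp13 in GM had the highest adjusted p of these, 0.048, and 6 of the 8 fits without a single library did not call it. For the dish effect at steady state, 6 such fits did not call Mmp13, 7 Mmp14 and 3 Mmp27. That of Mmp13 was 0.188 after subtraction. For the LPS response as GM minus M, 5 did not call Timp2 on each dish. On TC, 3 did not call Timp1, 3 Timp3 and 1 Mmp19, and on noTC 1 did not call Timp1.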

How the results depend on the processing

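Of 2488 recomputed values of single members, 2298 kept their side of the threshold, 145 lost the call and 38 gained it. Another 7, called in at least 1 of the 2 settings, turned. A turn of a value that was called in neither setting is counted among the 2298. An example is the dish effect of Mmp8 in M at steady state, 0.0892 at first and -0.163 after subtraction. A replicate block changed no call. With library size only, Mmp12 was at -0.22 in GM-TC and -0.133 in GM-noTC upon LPS challenge, Mmp8 at -0.502 in GM-noTC and, with M-CSF, at -0.383 on TC and -0.49 on noTC, and Mmp9 at -0.555 in M-noTC. With reads of other libraries subtracted, the dish effect of Mmp13 at steady state, GM minus M, was 0.188. The cause was not tested.

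The number of members called for the LPS response in GM, noTC minus TC, was 1, and became 3 without an expression filter, 0 with the libraries of the comparison only, and 0 with the subtraction. Over all genes, 24 of 12514 were called higher and 74 lower at first, and 87 and 140 of 16756 without the filter. With the libraries of the comparison only these were 10 and 51 of 12145, and with the subtraction 10 and 7 of 12514. A fold above 2 at an unadjusted p under 0.05 called 1 member for GM-noTC against GM-TC, 0 for GM-noTC-LPS against GM-TC-LPS and 2 for M-noTC-LPS against M-TC-LPS. Of all 12514 tested genes, it called 201 higher and 141 lower, 70 and 75, and 229 and 125 in these comparisons. It called 4 and 3 members for LPS in GM on TC and noTC, and 5 and 4 in M. Of all tested genes, 1693 rose and 1630 fell, 1669 and 1621, 2183 and 2340, and 1996 and 2077 in this order. For the LPS response, GM minus M, the same rule called 4 members on TC and 3 on noTC. For the LPS response in M between dishes it called 1, and for the dish effect with LPS 2. All tested genes gave 920 higher and 825 lower, 750 and 690, 139 and 182, and 165 and 201 in this order. This rule changes the fold and the adjustment together. Without a single library, the members called ranged from 4 to 8 for the LPS response on TC, GM minus M, from 0 to 1 for that in GM between dishes, from 1 to 4 for the dish effect at steady state, and from 2 to 4 for GM-noTC-LPS against GM-TC-LPS. A group of 1 library is then taken to vary like the others. Low counts limit the precision of Mmp27, Timp1 and Timp3 in M cells and of Mmp9 in GM cells.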
